A study of Mus musculus with 24 samples.

Results

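Gene expression in E0771 cells carrying a short hairpin RNA (shRNA) against Ptn, the gene of the cytokine pleiotrophin, was compared with expression in E0771 cells carrying a control vector. The labels assigned 6 of the 24 samples of the series to this comparison, 3 named E0771shPTN and 3 named E0771shCtrl here. Of the genes in the table, 10394 passed a filter on low values (at least 1 read of the gene per M reads, or 1 CPM, in at least 3 of the 6 samples) and were tested. The series examined pleiotrophin in mouse models of metastatic breast cancer and holds 4 experiments. Tumors of the 4T1 line and of MMTV-PyMT mice were taken under an antibody to pleiotrophin or a control antibody, and Ptn was knocked down in E0771 and in E0771-LG cells. E0771 is a mammary adenocarcinoma line of C57BL/6 mice with little tendency to metastasize, and E0771-LG was grown out of a lung metastasis that E0771 had formed.

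E0771shCtrl cells carried the pLKO.1-puro vector with a hairpin directed at EGFP, a jellyfish protein that mouse cells lack. E0771shPTN cells carried a single hairpin construct directed at Ptn. Both populations were infected repeatedly with virus, selected and kept in puromycin, and grown in DMEM with fetal bovine serum. Because the populations were selected separately and 1 construct was used, loss of Ptn, other targets of the hairpin and differences between selected populations cannot be told apart. The study's methods call the replicates biological, but whether they were separate cultures of the same selected population is not stated, and p-values measure the spread among these samples only.

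The libraries held 17.25, 20.42 and 16.61 M reads on genes in E0771shCtrl 1, 2 and 3, and 19.32, 18.05 and 15.63 M in E0771shPTN 1, 2 and 3. Depth thus overlapped between the groups. Levels are given as log2 CPM, and differences as log2 fold changes of E0771shPTN against E0771shCtrl, so that a negative value is a lower level in the knockdown. Across tested genes, which are not independent replicates, Pearson r was 0.978 to 0.991 for pairs of samples within a group and 0.954 to 0.974 for pairs from different groups. The leading principal component held 60.6% of the variance and separated the groups, with E0771shCtrl at scores of −16.9, −28 and −23.7 and E0771shPTN at 20.3, 28.2 and 20.1. The next component held 18.6% and set E0771shPTN 1, at −19.8, apart from E0771shPTN 2, at 22.1.

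Pleiotrophin and its relative midkine are small secreted proteins that bind heparan and chondroitin sulfate chains, through which they reach receptors such as the phosphatase Ptprz1, syndecans, neuropilins and integrins. Breast carcinomas can make pleiotrophin, a protein made mainly while the nervous system develops. Carcinoma lines such as E0771 also make inflammatory cytokines under NF-κB, respond to interferons through STAT and IRF factors, and deposit extracellular matrix, and the genes below are ordered by these roles.

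Ptn itself (ENSMUSG00000029838; GRCm38 chr6:36714929-36810220, minus strand) stood at 2.90, 2.18 and 2.28 log2 CPM in E0771shCtrl 1, 2 and 3, from 128, 92 and 80 reads. In E0771shPTN 1, 2 and 3 its level was −0.63, 0.25 and 0.53 log2 CPM, from 12, 21 and 22 reads. Every sample labelled as knockdown lay below every control sample. The log2 fold change was −2.40 ± 0.37 (SE, n = 3 per group), with a 95% interval of −3.22 to −1.59 and an adjusted p of 0.00159 in limma. Per kilobase of exon, the mean Ptn level was 1.63 RPKM in E0771shCtrl and 0.318 RPKM in E0771shPTN, so the gene was weakly expressed before the knockdown. In bulk RNA, fewer cells that express a gene and less of its RNA per cell cannot be told apart.

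Of 23 genes on the list of pleiotrophin, midkine and their receptors, 15 were tested; 2 were lower and 6 higher in E0771shPTN, where 11.7% of all tested genes were lower and 8.89% higher. The median log2 fold change of the list was 0.24, against −0.03 over all tested genes. Mdk, the gene of midkine, stood at 1.92, 1.59 and 2.46 log2 CPM in E0771shCtrl and 3.66, 2.60 and 3.36 in E0771shPTN, a log2 fold change of 1.21 ± 0.31 (SE; limma adjusted p = 0.0183). The closest pair of Mdk values, 2.46 in E0771shCtrl 3 and 2.60 in E0771shPTN 2, lay just short of overlap. Nrp2, a co-receptor of semaphorins and vascular endothelial growth factors, was at 6.75, 6.53 and 6.70 log2 CPM in E0771shCtrl and 8.25, 8.61 and 8.44 in E0771shPTN. The groups were far apart for Nrp2, whose log2 fold change was 1.77 ± 0.10 (limma adjusted p = 3.83e-06). Syndecan 1 (Sdc1), syndecan 4 (Sdc4) and glypican 1 (Gpc1), membrane proteins that carry heparan sulfate, rose by 0.44, 0.59 and 0.57 log2. Sdc3, another syndecan, rose by 1.64 ± 0.51 log2 from 14, 6 and 6 reads to 22, 24 and 31, and by 0.74 log2 with a pseudocount of 1. Besides Ptn, the gene that fell was Cd44, the hyaluronan receptor, with a log2 fold change of −0.50 ± 0.11. Ptprz1, the pleiotrophin receptor phosphatase, had 5 to 33 reads per sample and did not reach the filter. The call of Mdk was lost without E0771shCtrl 2 or E0771shPTN 3 and ranged in adjusted p from 0.00284 to 0.161 over all alternatives, and that of Sdc3 was lost without any library other than E0771shCtrl 1 and in most alternatives that kept all samples, with a range from 0.0213 to 0.237.

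**Figure D1:**
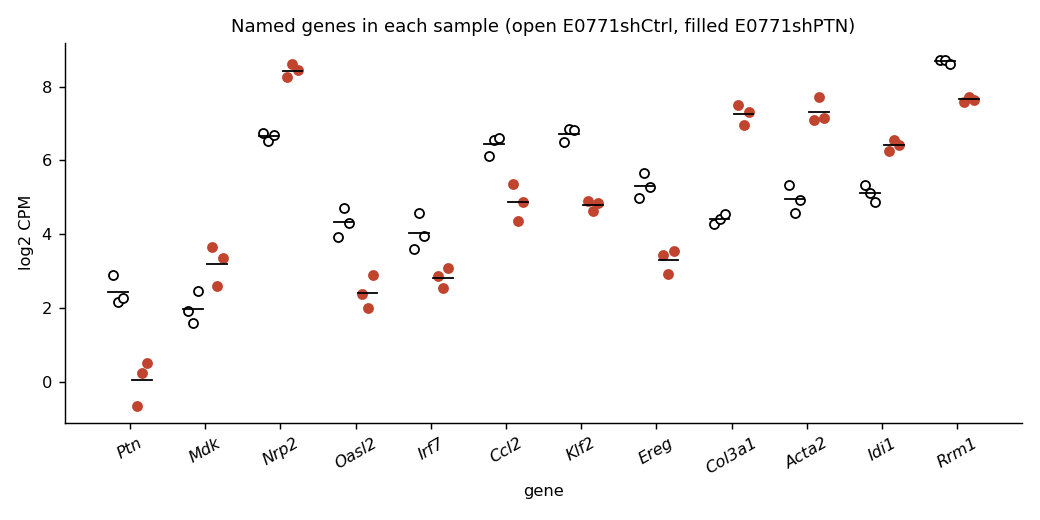
Level of 12 named genes in each E0771 sample, in log2 CPM, with E0771shCtrl as open circles, E0771shPTN as filled circles and a bar at each group mean. The groups do not overlap for any gene shown; Ptn lies at 2.18 to 2.90 in E0771shCtrl and at −0.63 to 0.53 in E0771shPTN.

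Across the 10394 tested genes, 1216 were lower and 924 higher in E0771shPTN at an adjusted p under 0.05 in limma. The groups did not overlap for 2133 of these 2140 genes, and they did not overlap for 4093 (39.4%) of all tested genes. Most changes were small: the median size was 0.55 log2 among the lower genes and 0.57 among the higher genes, and 900 of the 2140 changed by less than 0.5 log2. Larger changes were more often increases, with 133 genes lower and 206 higher by at least 1 log2, and 11 lower and 48 higher by at least 2 log2. The excess of lower genes depended on the scaling: median-of-ratios scaling gave 1071 lower and 1045 higher genes, and quantile normalization 1126 and 1079. The counts fell to 671 lower and 597 higher without E0771shCtrl 2, to 648 and 523 without E0771shCtrl 3, and to 746 and 492 without E0771shPTN 3. Among the 2079 genes with the lowest mean levels 7.98% were lower and 11.1% higher, whereas among the next 2079 genes 14.2% were lower and 7.55% higher. The median SE was 0.22 log2 in the lowest 2079 genes and 0.09 log2 in the highest 2079. Beyond the genes preset or picked by a rule on size or level, 90 of the genes named here were chosen after their values were seen.

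**Figure D2:**
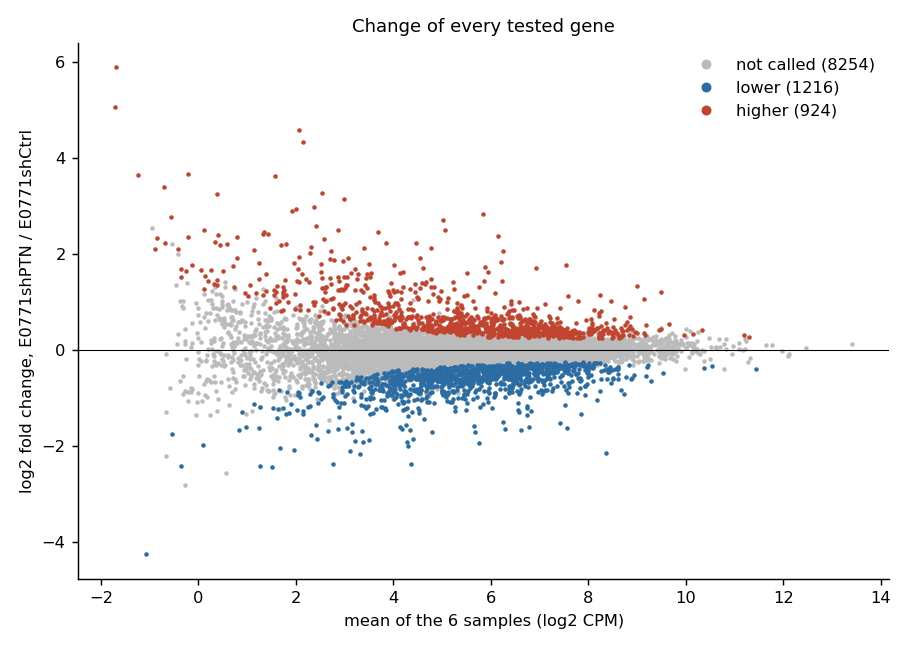
Log2 fold change (E0771shPTN against E0771shCtrl) of each of the 10394 tested genes over its mean level in the 6 samples in log2 CPM, with the 1216 lower and 924 higher genes coloured. Changes of 2 log2 or more are more often increases than decreases (48 against 11).

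Markers of carcinoma cells were read against the label of the line. Of 13 such markers 11 were in the table and 5 were tested, and limma called no change in any of them. Vim, the intermediate filament of mesenchymal cells, was the most abundant of them per length, at 961 RPKM in E0771shCtrl and 881 RPKM in E0771shPTN. Krt8, a keratin of simple epithelia, was at 6.50, 6.74 and 6.62 log2 CPM in E0771shCtrl and 6.65, 6.47 and 6.60 in E0771shPTN, with overlapping groups. Krt5 and Krt19 had 0 reads in all 6 samples, Elf5, Krt14 and Krt18 at most 3, and the cadherin gene Cdh1 at most 7. The summed level of the markers was 4433, 5038 and 4697 CPM in E0771shCtrl and 4207, 4502 and 4291 in E0771shPTN. Both groups thus carried Krt8 and much Vim, with at most 3 reads of the other keratins among these markers.

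Many markers of other cells did not reach the filter, and some of those tested moved with the knockdown. Of 12 macrophage markers 3 were tested, of which limma called 0 lower and 1 higher. The higher one was Lyz2, the gene of lysozyme, which rose by 2.23 ± 0.16 log2 from 5.01 to 23.8 RPKM. C1qa, C1qc and Itgam, which macrophages express, had 0 reads in all samples, and Adgre1, C1qb and Fcgr1 at most 3. The summed macrophage level, which includes Lyz2, was 17.2, 32.4 and 25.8 CPM in E0771shCtrl and 48.6, 35.9 and 41.3 in E0771shPTN. All 4 tested of 8 fibroblast markers were higher, with Col3a1 the most abundant per length (2.18 RPKM in E0771shCtrl and 15.7 in E0771shPTN) and Lum at most 3 reads. Their summed level was 52.9, 78.2 and 66.5 CPM in E0771shCtrl and 292, 247 and 283 in E0771shPTN. Of 10 T and NK cell markers only Lck was tested and it rose by 0.82 log2, while Cd3e, Cd3g and Nkg7 were at 0 reads; the sums were 5.28, 3.38 and 5.18 against 8.13, 8.03 and 8 CPM. Pax5, the only B cell marker of 5 in the table, fell by 0.38 log2, with 69, 69.8 and 61.2 against 45.6, 58.4 and 50.7 CPM. Tie1, the only tested endothelial marker of 8, rose by 0.52 log2 (limma adjusted p = 0.0497), with Cldn5 at 0 reads and sums of 8.12, 8.62 and 8.73 against 12, 11.9 and 11.1 CPM. Of the neutrophil markers S100a8 and of the adipocyte markers Fabp4 were tested, with overlapping groups and no call in limma. Csf3r and S100a9 had 0 reads, and the sums were 4.29, 5.39 and 5.72 against 7.46, 1.33 and 4.35 CPM for neutrophils and 1.22, 1.18 and 2.05 against 2.43, 0.277 and 2.11 for adipocytes. The calls of Lck, Pax5 and Tie1 were each lost without E0771shCtrl 2, E0771shCtrl 3, E0771shPTN 1 or E0771shPTN 3, among others, with adjusted p up to 0.0925, 0.123 and 0.193 over the alternatives. What part other cells had in any result was not tested.

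Among the 12 largest decreases with groups apart and a mean of at least 1 log2 CPM in either group, Nap1l1, a histone chaperone, was the most abundant. Its level was 9.52, 9.47 and 9.30 log2 CPM in E0771shCtrl and 7.38, 7.10 and 7.40 in E0771shPTN, a log2 fold change of −2.13 ± 0.10 (limma adjusted p = 2.02e-06). Per length it fell from 138 to 31.6 RPKM. Auts2, which encodes a nuclear protein named for its role in neurodevelopmental disorders, had 31, 45 and 35 reads in E0771shCtrl and 0, 2 and 5 in E0771shPTN, a fitted log2 fold change of −4.25 ± 0.86 that became −1.42 with a pseudocount of 1. Arhgef3, a guanine nucleotide exchange factor, stood at 3.42, 4.59 and 3.82 log2 CPM in E0771shCtrl and 1.33, 1.90 and 1.51 in E0771shPTN, a log2 fold change of −2.36 ± 0.29. Chml, a Rab escort protein, and Mblac2, a metallo-beta-lactamase domain protein, had log2 fold changes of −2.16 ± 0.28 and −2.09 ± 0.20. In Chml the lowest control value, 4.25, lay well above the highest knockdown value, 2.61. The remaining genes of these 12 are Ptn and members of the lists below (Sprr1a, Kdm7a, Irf8, Lcn2, Ereg and Fgf2).

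The 12 largest increases, chosen in the same way, included genes with almost no reads in E0771shCtrl. Agt, the gene of angiotensinogen, had 1 read in E0771shCtrl 1 and 0 in the other control samples, against 65, 29 and 37 reads in E0771shPTN. Its ratio of summed reads was 134, with a 95% exact binomial interval of 23.7 to 5340 that covers counting error only. Serpinf1, the gene of pigment epithelium-derived factor, which inhibits angiogenesis, was at 0.18, −0.22 and −0.01 log2 CPM in E0771shCtrl and 4.27, 4.22 and 4.45 in E0771shPTN, a log2 fold change of 4.33 ± 0.22 (limma adjusted p = 2.17e-06). No sample of either group came near the other group in Serpinf1. Cp, the gene of the copper carrier ceruloplasmin, rose by 4.59 ± 0.31 log2 and Sod3, the secreted superoxide dismutase, by 3.63 ± 0.31 log2. Tuba8, an alpha tubulin, rose by 3.26 ± 0.29 log2, and C1qtnf1, a secreted relative of adiponectin, by 3.66 ± 0.67 log2 from 8, 1 and 6 reads to 53, 59 and 48. With a pseudocount of 1 the log2 fold change of C1qtnf1 was 1.65 and that of Prxl2a 1.84. Nrxn2, a synaptic adhesion protein, and Hand1, a transcription factor of heart and placenta, rose by 2.93 ± 0.29 and 2.89 ± 0.36 log2. Atoh8, another such factor, was at 2.47, −0.14 and 0.30 log2 CPM in E0771shCtrl and 3.90, 4.02 and 3.64 in E0771shPTN, and E0771shCtrl 1 stood between its group and the knockdown samples. Its log2 fold change of 2.98 ± 0.61 lost the call without E0771shCtrl 3 or E0771shPTN 1 and ranged in adjusted p from 4.82e-05 to 0.0561. The rest of the 12 were Prxl2a, Gask1b and the collagen gene Col3a1, with log2 fold changes of 3.25 ± 0.40, 3.14 ± 0.32 and 2.83 ± 0.14.

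Of 50 tested interferon-stimulated genes of antiviral defence, 21 were lower and 2 higher, and the median log2 fold change was −0.48 against −0.03 over all tested genes. Oasl2, an oligoadenylate synthetase-like protein, stood at 3.94, 4.72 and 4.32 log2 CPM in E0771shCtrl and 2.38, 2.01 and 2.89 in E0771shPTN, a log2 fold change of −1.91 ± 0.26 (limma adjusted p = 0.000753). Ifit1, which binds viral RNA, stood at 4.50, 5.32 and 4.82 log2 CPM in E0771shCtrl and 3.81, 3.41 and 3.81 in E0771shPTN, a log2 fold change of −1.20 ± 0.20. In both genes E0771shCtrl 1 was the lowest control sample and E0771shPTN 2 the lowest knockdown sample, and the groups did not overlap. Cmpk2, a mitochondrial nucleotide kinase, and Slfn5, a Schlafen protein, had log2 fold changes of −1.69 ± 0.31 and −1.40 ± 0.20. Ddx58, the gene of the RNA sensor RIG-I, fell by 0.92 log2. Oas3 and Rsad2, the latter the gene of viperin, had log2 fold changes of −1.84 ± 0.42 and −1.25 ± 0.35. The 2 higher members were Lgals3bp, a secreted galectin ligand, at 0.87 ± 0.09 log2, and Nmi, a STAT-binding protein, at 0.43 ± 0.12 log2. The mean over the 50 genes was 4.30, 4.85 and 4.61 log2 CPM in E0771shCtrl 1, 2 and 3 and 4.11, 3.77 and 4.21 in E0771shPTN 1, 2 and 3. Without E0771shCtrl 2 or E0771shCtrl 3, 12 and 11 members were lower, and the higher members numbered 4 without E0771shPTN 2 and 1 without E0771shCtrl 3. The call of Oas3 was lost without E0771shCtrl 3, E0771shPTN 1 or E0771shPTN 2 (adjusted p up to 0.162 over the alternatives), that of Rsad2 without any library other than E0771shCtrl 1 (up to 0.146), and that of Nmi without E0771shCtrl 1, E0771shCtrl 3, E0771shPTN 1 or E0771shPTN 3 (up to 0.0887).

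Receptors, STAT and IRF factors of the interferon pathway numbered 27 tested, of which 6 were lower and 1 higher, with a median log2 fold change of −0.13. Irf8, a factor of interferon and myeloid gene programs, was at 2.15, 3.52 and 3.33 log2 CPM in E0771shCtrl and 1.10, 1.20 and 0.46 in E0771shPTN, a log2 fold change of −2.08 ± 0.37 (limma adjusted p = 0.00335). Irf7, which drives type I interferon genes, was at 3.61, 4.57 and 3.97 log2 CPM in E0771shCtrl and 2.87, 2.55 and 3.08 in E0771shPTN, a log2 fold change of −1.21 ± 0.24 (limma adjusted p = 0.00605). The groups were apart in both factors, with E0771shCtrl 1 nearest to the knockdown. Stat2 and Irf9, parts of a complex that binds interferon-stimulated genes, had log2 fold changes of −0.62 ± 0.14 and −0.49 ± 0.13. The higher member was Stat6, the factor downstream of interleukin 4, at 0.57 ± 0.13 log2. Among interferon-inducible GTPases, 4 of 9 tested were lower and 0 higher in limma, with 0 higher also at an unadjusted p under 0.05 and by voom, and a median of −0.44. Gbp2, a guanylate-binding protein, was at 3.46, 4.11 and 3.46 log2 CPM in E0771shCtrl and 2.31, 1.48 and 2.31 in E0771shPTN, and Gbp3, Gbp7 and Irgm1 had log2 fold changes of −1.55 ± 0.26, −0.92 ± 0.21 and −0.54 ± 0.13. Genes of the Oas, Gbp and H2 families share near-identical stretches with their paralogs, so counting could have split their reads, and their single values are uncertain. Without E0771shCtrl 2 or E0771shCtrl 3, 3 factors and 3 GTPases were lower, and Irf9 and Irgm1 lost their calls (adjusted p up to 0.0993 and 0.134 over the alternatives), as Stat6 did without E0771shCtrl 2 (up to 0.0521). Irf7, Stat2 and Gbp7 lost their calls in a fit over the samples of both lines, and their adjusted p ranged from 0.00344 to 0.0937, from 0.00594 to 0.383 and from 0.00927 to 0.203 over the alternatives.

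IRF factors bind an element made of 2 copies of GAAA separated by 2 bases. It was searched on both strands in the RefSeq promoters of GRCm38.p6, which run from 250 bases before a gene's start to 50 bases after it, and 3.44% of 32851 promoters held it. Of the 21 lower antiviral genes 17 matched a promoter by symbol and 9 of these held the element, and of the tested antiviral genes that were not lower 23 matched and 10 held it. All 4 lower GTPases matched and held it, as did 2 of 4 matched GTPases that were not lower, and among chemokines and cytokines it was held by 1 of 3 lower genes and 1 of 9 others. The share was thus above that of all promoters in lower and not lower antiviral genes alike. The promoters of Oas3, Gbp3, Rsad2 and Ifit1 are shown as the lower genes with the largest decreases whose element lay in the 200 bases before the start, ending before both the RefSeq and the GENCODE start; bases of the element are in capitals, and TTTC is GAAA on the other strand. They lie at chr5:120777662-120777861 (minus strand), chr3:142559826-142560025 (plus), chr12:26456453-26456652 (minus) and chr19:34640671-34640870 (plus). The elements start at −75 in Oas3, at −45 and −39 in Gbp3, at −120 in Rsad2 and at −104 and −85 in Ifit1. These positions are counted from the RefSeq start, and the runs of Oas3, Gbp3 and Ifit1 end some bases before it, where the GENCODE start is earlier, so their last base is not at −1.
Oas3: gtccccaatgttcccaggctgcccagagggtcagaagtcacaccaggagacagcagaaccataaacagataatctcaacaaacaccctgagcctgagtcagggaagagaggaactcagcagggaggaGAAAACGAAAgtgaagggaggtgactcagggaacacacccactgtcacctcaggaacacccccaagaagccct
Gbp3: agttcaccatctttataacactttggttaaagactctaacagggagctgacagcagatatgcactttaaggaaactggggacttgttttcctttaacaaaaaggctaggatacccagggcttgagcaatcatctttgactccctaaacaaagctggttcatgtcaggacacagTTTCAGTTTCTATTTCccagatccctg
Rsad2: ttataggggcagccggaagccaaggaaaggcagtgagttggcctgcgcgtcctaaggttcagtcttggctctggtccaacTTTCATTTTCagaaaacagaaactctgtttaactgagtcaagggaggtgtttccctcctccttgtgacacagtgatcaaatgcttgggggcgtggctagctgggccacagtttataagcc
Ifit1: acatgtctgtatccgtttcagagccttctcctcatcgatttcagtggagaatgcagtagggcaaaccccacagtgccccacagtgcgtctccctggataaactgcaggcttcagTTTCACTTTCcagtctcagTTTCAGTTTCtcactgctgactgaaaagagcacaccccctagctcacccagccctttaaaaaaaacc

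Genes of MHC class I presentation differed from the antiviral genes in their counts. Of 24 tested, 1 was lower and 1 higher, below the share among all tested genes, and the median log2 fold change was 0.04. H2-K1, a classical class I heavy chain, was at 6.65, 6.98 and 6.97 log2 CPM in E0771shCtrl and 7.17, 6.55 and 6.98 in E0771shPTN, with groups that overlapped. The lower gene was Psme1, a proteasome activator subunit that interferon induces, with a log2 fold change of −0.43 ± 0.12. The higher gene was Psmb8, an immunoproteasome subunit, at 0.44 ± 0.13 log2. The lower genes numbered 4 without E0771shPTN 1 and 3 without E0771shCtrl 1. Both calls were lost without E0771shCtrl 2, E0771shCtrl 3 or E0771shPTN 3, among others, with adjusted p from 0.00588 to 0.112 for Psme1 and from 0.011 to 0.173 for Psmb8 over the alternatives.

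Of 30 tested NF-κB factors and inhibitors, 9 were lower and 0 higher in limma (0 higher also at an unadjusted p under 0.05 and by voom), with a median log2 fold change of −0.24. Relb, a subunit of the noncanonical pathway, was at 4.58, 5.29 and 5.09 log2 CPM in E0771shCtrl and 4.21, 3.62 and 4.08 in E0771shPTN, a log2 fold change of −1.02 ± 0.20 (limma adjusted p = 0.00602). Nfkbia, an inhibitor that is itself a target of the pathway, was at 6.26, 6.51 and 6.46 log2 CPM in E0771shCtrl and 5.99, 5.73 and 5.84 in E0771shPTN, a log2 fold change of −0.56 ± 0.11. Both genes had groups that were apart. Nfkb1, the p50 precursor, had a log2 fold change of −0.34 ± 0.09, and Rela, the p65 subunit, one of 0.06 ± 0.08 with groups that overlapped. Rela was also the more abundant of the pair per length, at 65.6 RPKM in E0771shCtrl against 12 RPKM for Nfkb1. Without E0771shCtrl 2, E0771shCtrl 3 or E0771shPTN 3, 3, 2 and 4 factors were lower, and the call of Nfkb1 was lost without E0771shCtrl 1 or E0771shCtrl 3 (adjusted p 0.0141 to 0.0632 over the alternatives).

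Of 19 tested chemokines and cytokines, many of which NF-κB and interferon induce, 7 were lower and 11 had a log2 fold change below 0, and limma called 0 higher, with 4 higher at an unadjusted p under 0.05 and 0 by voom; the median log2 fold change was −0.23. Ccl2, which attracts monocytes, was at 6.12, 6.56 and 6.62 log2 CPM in E0771shCtrl and 5.36, 4.37 and 4.87 in E0771shPTN, a log2 fold change of −1.57 ± 0.24 (limma adjusted p = 0.00284). Cxcl1, which attracts neutrophils, and Cxcl10, which interferon induces, had log2 fold changes of −1.54 ± 0.29 and −1.12 ± 0.24. E0771shPTN 2 had the lowest value of the 6 samples in all 3 genes. Without E0771shCtrl 2 or E0771shCtrl 3, 3 members were lower in either case, and 1, 1 and 3 were higher without E0771shCtrl 1, E0771shPTN 1 and E0771shPTN 2. Cxcl10 lost its call in a fit over the samples of both lines (adjusted p 0.00328 to 0.0706 over the alternatives). Cytokine and death receptors were near the background, with 4 of 34 tested lower (11.8%), 4 higher (11.8%) and a median of 0.01. Fas, the death receptor, fell by 1.63 ± 0.35 log2, Tlr3, the sensor of double-stranded RNA, by 0.87 ± 0.18, Osmr, the oncostatin M receptor, by 0.80 ± 0.16, and the kinase Irak1 by 0.32 ± 0.07. The receptors Il1r1, Tnfrsf1b, Il2rg and Tlr6 rose by 0.70 ± 0.11, 0.63 ± 0.11, 0.64 ± 0.17 and 1.19 ± 0.35 log2 (0.79 with a pseudocount of 1 for Tlr6). Of these, Irak1, Il2rg and Tlr6 lost their calls without E0771shCtrl 2 or E0771shPTN 3 (adjusted p up to 0.0684, 0.0982 and 0.113 over the alternatives), and the latter pair also without E0771shCtrl 3 or E0771shPTN 1, which left 2 higher receptors without E0771shCtrl 2, E0771shCtrl 3, E0771shPTN 1 or E0771shPTN 3.

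Immediate early genes, which growth factors and stress induce within minutes, were lower in 12 of 34 tested and higher in 2, with a median log2 fold change of −0.29. Klf2, a Krüppel-like factor, was at 6.51, 6.84 and 6.82 log2 CPM in E0771shCtrl and 4.91, 4.62 and 4.86 in E0771shPTN, a log2 fold change of −1.93 ± 0.12 (limma adjusted p = 6.86e-06). Atf3, a stress-induced factor, was at 4.95, 5.62 and 5.47 log2 CPM in E0771shCtrl and 4.05, 3.31 and 4.36 in E0771shPTN, a log2 fold change of −1.44 ± 0.27. The groups were apart in both genes, and most widely in Klf2. Klf4, Ier2, Myc and Jun had log2 fold changes of −1.04 ± 0.13, −0.88 ± 0.15, −0.51 ± 0.09 and −0.47 ± 0.09. The 2 higher genes were Dusp1, a phosphatase of MAP kinases, at 1.11 ± 0.11 log2, and Zfp36l1, an RNA-binding protein, at 0.51 ± 0.13 log2. Without E0771shCtrl 2 the count of lower members was 7, and that of higher members was 4 without E0771shPTN 1. Zfp36l1 lost its call without E0771shCtrl 1, E0771shCtrl 2, E0771shCtrl 3 or E0771shPTN 3 (adjusted p up to 0.113 over the alternatives).

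Acute-phase and complement genes, which hepatocytes make in inflammation and many carcinomas express, showed 2 lower and 5 higher of 20 tested, with a median of 0.07. Besides Cp, the higher members were Lbp, which binds bacterial lipopolysaccharide, at 1.41 ± 0.28 log2, Masp1, a protease of the lectin pathway, at 1.30 ± 0.18, Clu, the chaperone clusterin, at 0.87 ± 0.13, and C1rl at 0.63 ± 0.17. The lower members were Lcn2, the iron-siderophore carrier lipocalin 2, and Cebpg, a C/EBP factor, with log2 fold changes of −2.04 ± 0.53 and −0.48 ± 0.09. Lcn2 was at 1.23, 3.63 and 3.24 log2 CPM in E0771shCtrl and 0.51, 0.71 and 0.76 in E0771shPTN, so its spread lay among the control samples. Its call was lost without any library other than E0771shCtrl 1 (adjusted p 0.000437 to 0.0945 over the alternatives), and that of C1rl without E0771shCtrl 1, E0771shCtrl 2, E0771shPTN 1 or E0771shPTN 3 (up to 0.139). Lbp lost its call in a fit over the samples of both lines (adjusted p 0.00328 to 0.248).

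**Figure D3:**
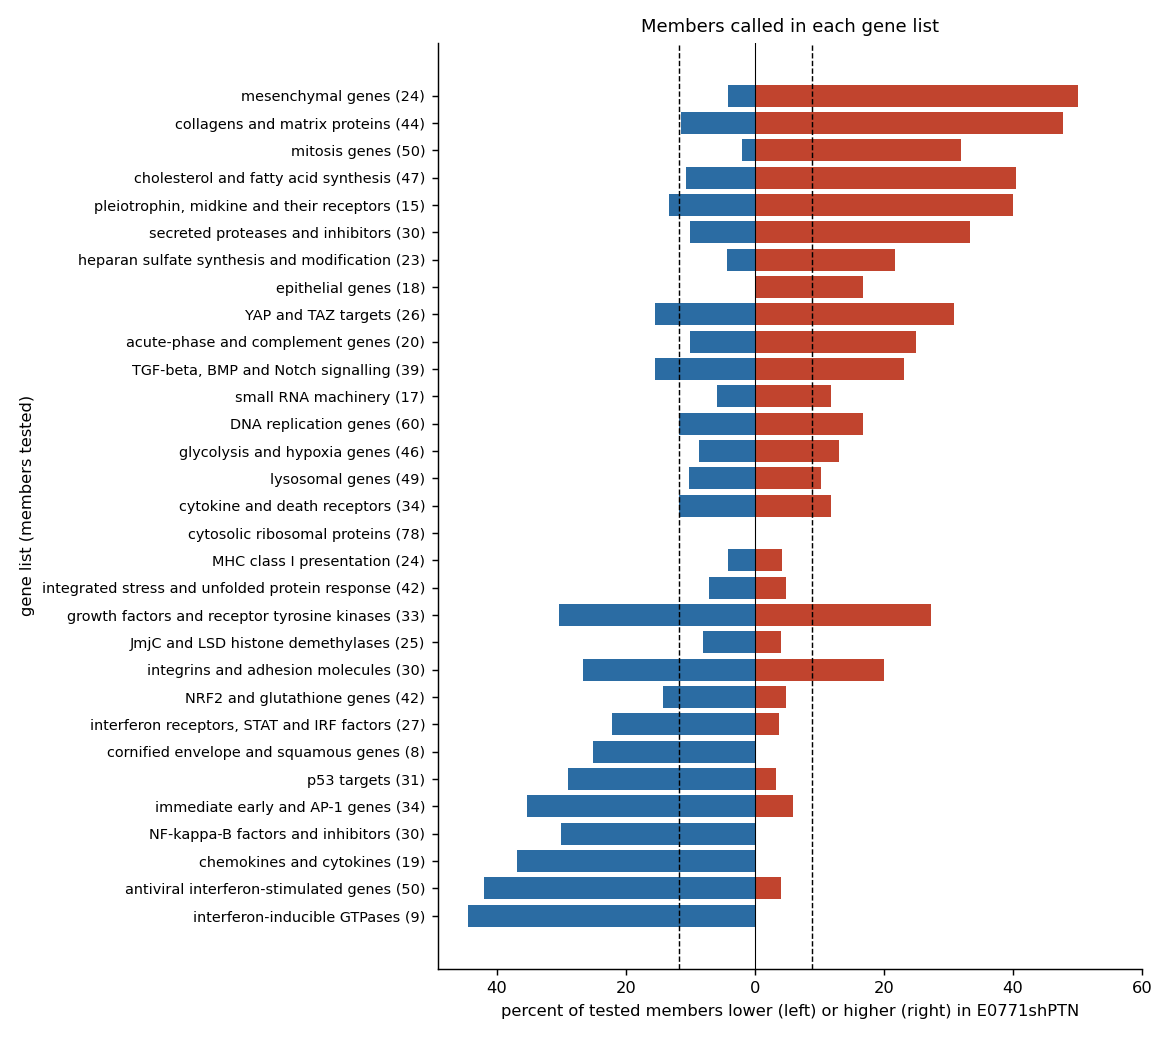
Percent of the tested members of each gene list that were lower (left) or higher (right) in E0771shPTN at a limma adjusted p under 0.05, with the number of tested members in brackets and dashed lines at the 11.7% lower and 8.89% higher of all 10394 tested genes. Antiviral genes are 42.0% lower and 4.00% higher, and collagens and matrix proteins 11.4% lower and 47.7% higher.

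Of 44 tested collagens and matrix proteins, 21 were higher and 5 lower, 15 had a log2 fold change below 0, and the median log2 fold change was 0.60. Col3a1, a fibrillar collagen, was at 4.27, 4.43 and 4.54 log2 CPM in E0771shCtrl and 7.49, 6.95 and 7.30 in E0771shPTN (limma adjusted p = 2.02e-06). Thbs1, the matrix glycoprotein thrombospondin 1, was at 4.35, 3.23 and 3.39 log2 CPM in E0771shCtrl and 5.87, 6.87 and 6.34 in E0771shPTN, a log2 fold change of 2.70 ± 0.34 (limma adjusted p = 0.00178). Every knockdown sample was above every control sample in both genes. Loxl2, a collagen crosslinking enzyme, Thbs2, a further thrombospondin, and Tgfbi, an adhesive matrix protein, rose by 2.51 ± 0.14, 2.41 ± 0.32 and 2.12 ± 0.21 log2. The basement membrane collagens Col4a1 and Col4a2 rose by 1.20 ± 0.08 and 1.03 ± 0.08 log2, and Col4a1 reached 146 RPKM from 63.2 RPKM. Sparc, which binds collagen, rose by 1.33 ± 0.09 log2 to 215 RPKM, and Col1a1 rose by 1.02 ± 0.12 log2. The 5 lower genes were Loxl4, the laminin chains Lamc1 and Lamb2, Agrn and Fbln2, with log2 fold changes of −1.30 ± 0.14, −0.91 ± 0.12, −0.74 ± 0.08, −0.41 ± 0.13 and −0.39 ± 0.09. The mean over the 44 genes was 4.90, 4.88 and 4.87 log2 CPM in E0771shCtrl and 5.56, 5.48 and 5.64 in E0771shPTN, and without any 1 library 18 to 21 members were higher. Agrn, whose groups overlapped, lost its call without any library other than E0771shCtrl 1 (adjusted p up to 0.438 over the alternatives). Thbs1 lost its call with a replicate block (0.000144 to 0.0668), and Fbln2 in a fit over the samples of both lines (0.00661 to 0.171). Fibroblast markers, which include collagens of this list, moved with it, at summed levels given above, and their part was not tested.

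Of 30 tested secreted proteases and inhibitors 10 were higher and 3 lower, with a median log2 fold change of 0.08. Htra1, a secreted serine protease, was at 5.38, 5.24 and 5.23 log2 CPM in E0771shCtrl and 7.16, 7.06 and 7.15 in E0771shPTN, a log2 fold change of 1.84 ± 0.09 (limma adjusted p = 2.02e-06). The samples of each group lay close together, and far from the other group. Mmp2 and Mmp14, a gelatinase and the membrane protease that activates it, rose by 1.30 ± 0.14 and 0.68 ± 0.11 log2, and Timp2, their inhibitor, by 0.59 ± 0.08 log2. The lower members included Plaur, the urokinase receptor, and Adam8, with log2 fold changes of −0.54 ± 0.11 and −1.28 ± 0.39 (−0.84 with a pseudocount of 1 for Adam8). Without E0771shCtrl 1 there were 5 lower members, and Adam8 lost its call without E0771shCtrl 2, E0771shCtrl 3, E0771shPTN 1 or E0771shPTN 3 (adjusted p up to 0.17 over the alternatives).

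Of 30 tested integrins and adhesion molecules 8 were lower and 6 higher, with a median log2 fold change of −0.10. Itga6, the laminin-binding integrin alpha 6 chain, was at 7.24, 7.69 and 7.43 log2 CPM in E0771shCtrl and 5.71, 5.75 and 5.87 in E0771shPTN, a log2 fold change of −1.67 ± 0.11 (limma adjusted p = 8.79e-06). Itga7, another laminin-binding chain, moved the other way, from 5.10, 5.21 and 5.09 log2 CPM to 6.80, 6.65 and 6.83, a log2 fold change of 1.63 ± 0.10 (limma adjusted p = 3.83e-06). Among the adhesion molecules, Sele, the selectin of activated endothelium, and L1cam, a neural adhesion molecule, had log2 fold changes of −1.65 ± 0.25 and −1.33 ± 0.10. Ncam1, also a neural adhesion molecule, and Itga1, a collagen-binding chain, rose by 1.81 ± 0.32 and 1.14 ± 0.14 log2. Without E0771shPTN 3 the higher members numbered 3.

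Mesenchymal genes were higher in 12 of 24 tested and lower in 1, with a median log2 fold change of 0.43. Acta2, smooth muscle actin, was at 5.33, 4.58 and 4.93 log2 CPM in E0771shCtrl and 7.10, 7.72 and 7.15 in E0771shPTN, a log2 fold change of 2.38 ± 0.21 (limma adjusted p = 0.000226). Myl9, its myosin light chain, was at 2.26, 2.16 and 2.95 log2 CPM in E0771shCtrl and 4.73, 5.03 and 4.98 in E0771shPTN, a log2 fold change of 2.46 ± 0.21 (limma adjusted p = 5.27e-05). Neither gene had groups that came within 1 log2 of each other. Pdgfra and Pdgfrb, the platelet-derived growth factor receptors, rose by 1.43 ± 0.18 and 1.61 ± 0.20 log2, Foxc1 and Snai1, transcription factors of mesenchymal programs, by 1.47 ± 0.20 and 1.23 ± 0.18 log2, and Tgfb2 by 1.53 ± 0.20 log2. The lower member was Tgfb1, another TGF-beta ligand, with a log2 fold change of −1.01 ± 0.17. Without E0771shPTN 2 there were 2 lower members. The mean over the 24 genes was 4.80, 4.91 and 4.89 log2 CPM in E0771shCtrl and 5.37, 5.55 and 5.43 in E0771shPTN. The fibroblast markers include Pdgfra and Pdgfrb of this list, so their rise is not a separate observation. In sum they were at 52.9 to 78.2 CPM in E0771shCtrl and 247 to 292 CPM in E0771shPTN, and their part was not tested. Of 18 tested epithelial genes 3 were higher, Krt80 by 1.28 ± 0.17, Cldn12 by 0.52 ± 0.11 and Trp63 by 2.10 ± 0.57 log2 (0.74 with a pseudocount of 1), and limma called 0 lower (0 also at an unadjusted p under 0.05 and by voom), with a median of 0.19. Trp63 lost its call without any library other than E0771shCtrl 1 (adjusted p up to 0.223 over the alternatives).

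Of 39 tested genes of TGF-beta, BMP and Notch signalling 9 were higher and 6 lower, with a median log2 fold change of 0.05. Id2 and Id3, targets of BMP signalling that block differentiation factors, rose by 2.07 ± 0.41 and 1.71 ± 0.39 log2. Id2 was at 6.17, 4.40 and 5.08 log2 CPM in E0771shCtrl and 7.23, 7.35 and 7.26 in E0771shPTN, and Id3 at 6.97, 5.29 and 5.92 against 7.81, 7.74 and 7.77. The knockdown samples agreed closely in Id2, whereas the control samples were spread out, with E0771shCtrl 1 highest. Smad7, an inhibitor of TGF-beta signalling, rose by 1.31 ± 0.20 log2, Dll4, a Notch ligand, by 2.78 ± 0.53 (1.17 with a pseudocount of 1), and Bmp7 by 0.97 ± 0.17. The calls of Id2 and Id3 were lost without E0771shCtrl 3, E0771shPTN 1 or E0771shPTN 2, and that of Id3 also without E0771shPTN 3, with adjusted p from 7.25e-05 to 0.114 and from 9.79e-05 to 0.156 over the alternatives. The count of lower members was 0 without E0771shCtrl 2, 2 without E0771shCtrl 3 and 2 without E0771shPTN 3, so no lower member is named.

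YAP and TAZ are coactivators that respond to cell tension. Genes on the list of their targets, which also holds TEAD factors, were higher in 8 of 26 tested and lower in 4, with a median of 0.15. Ccn2, connective tissue growth factor, was at 1.83, 0.95 and 1.17 log2 CPM in E0771shCtrl and 2.92, 2.95 and 2.86 in E0771shPTN, a log2 fold change of 1.59 ± 0.27 (limma adjusted p = 0.00237). The knockdown samples were all above the highest control sample. Amotl2 and Ajuba, which regulate the pathway and are targets of it, rose by 1.49 ± 0.22 and 0.91 ± 0.13 log2. The lower members were the TEAD factors Tead2 and Tead4, the membrane repair protein Myof and the stress gene Gadd45a, with log2 fold changes of −0.51 ± 0.09, −0.62 ± 0.13, −0.53 ± 0.10 and −0.65 ± 0.18. Gadd45a lost its call without E0771shCtrl 2 or E0771shCtrl 3 (adjusted p up to 0.119 over the alternatives).

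**Figure D4:**
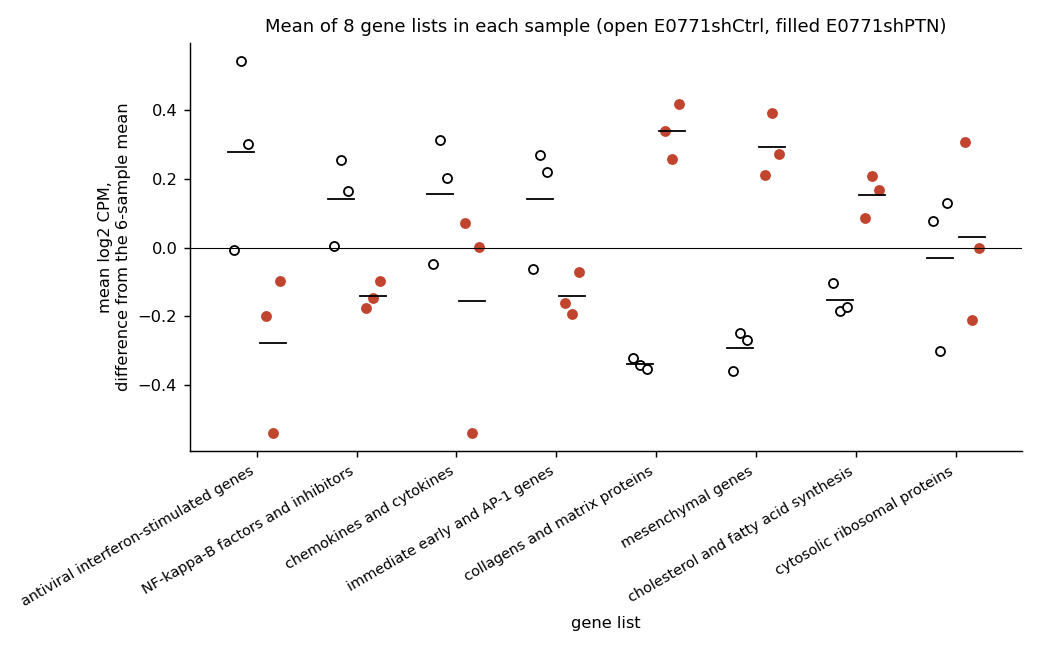
Mean log2 CPM of the tested members of 8 gene lists in each E0771 sample, as the difference from the mean of the 6 samples, with E0771shCtrl as open circles and E0771shPTN as filled circles. Collagens and matrix proteins lie at 4.87 to 4.90 in E0771shCtrl and at 5.48 to 5.64 in E0771shPTN before that mean is subtracted.

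Growth factors and receptor tyrosine kinases moved in both directions, with 10 of 33 tested lower and 9 higher and a median log2 fold change of 0.03. Ereg, epiregulin, was at 4.98, 5.65 and 5.27 log2 CPM in E0771shCtrl and 3.43, 2.94 and 3.55 in E0771shPTN, a log2 fold change of −1.99 ± 0.20 (limma adjusted p = 0.000156). Areg, Btc and Hbegf, the ligands amphiregulin, betacellulin and heparin-binding EGF-like growth factor, had log2 fold changes of −1.66 ± 0.32, −1.63 ± 0.21 and −0.90 ± 0.20. Areg lost its call with a replicate block (adjusted p 0.000705 to 0.0761 over the alternatives). Insr, the insulin receptor, fell by 1.12 ± 0.13 log2, whereas Igf1r and Igf2r, receptors of insulin-like growth factors, rose by 0.56 ± 0.10 and 1.22 ± 0.18 log2. The growth factors Pdgfc, Vegfc and Vegfd, which act on platelet-derived and vascular growth factor receptors, rose by 3.64 ± 0.66, 1.24 ± 0.28 and 1.21 ± 0.24 log2. Pdgfc had 4, 1 and 1 reads in E0771shCtrl and 30, 29 and 20 in E0771shPTN, and its log2 fold change was 1.16 with a pseudocount of 1. Fgf2, a fibroblast growth factor that binds heparan sulfate, had 26, 69 and 29 reads in E0771shCtrl and 8, 8 and 11 in E0771shPTN. Its log2 fold change was −1.98 ± 0.46 (−1.04 with a pseudocount of 1). The call of Fgf2 was lost in 3 of 16 alternatives, the threshold of 0.01 and the fit without E0771shCtrl 2 among them. Over the alternatives its limma adjusted p ran from 0.00561 to 0.253.

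Cholesterol and fatty acid synthesis was higher in 19 of 47 tested genes and lower in 5, with a median log2 fold change of 0.21. Idi1, the isomerase that makes dimethylallyl diphosphate, was at 5.34, 5.11 and 4.87 log2 CPM in E0771shCtrl and 6.27, 6.56 and 6.42 in E0771shPTN, a log2 fold change of 1.31 ± 0.13 (limma adjusted p = 0.00014). The groups were apart, and E0771shPTN 2 was the highest sample. Acat2, Mvd, Cyp51 and Sqle, other enzymes of the pathway, rose by 1.19 ± 0.13, 0.76 ± 0.13, 0.67 ± 0.13 and 0.48 ± 0.09 log2. The lower genes were Pmvk, Elovl7, Acsl1, Abcg1 and Srebf1, with log2 fold changes of −0.72 ± 0.16, −0.57 ± 0.15, −0.55 ± 0.10, −0.37 ± 0.09 and −0.34 ± 0.10. Without E0771shCtrl 3, 11 members were higher and 3 lower, and without E0771shPTN 3, 2 were lower. Elovl7 and Srebf1 lost their calls without E0771shCtrl 2, E0771shCtrl 3 or E0771shPTN 3 (adjusted p up to 0.0984 and 0.133 over the alternatives), Srebf1 also without E0771shPTN 2, and Abcg1 lost its call without E0771shPTN 3 (up to 0.494).

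Glycolysis and hypoxia genes stayed near the background, with 4 of 46 tested lower, 6 higher and a median of 0.02. Ldhb, a lactate dehydrogenase chain, was at 0.25, 0.48 and −0.41 log2 CPM in E0771shCtrl and 2.65, 2.46 and 2.58 in E0771shPTN, a log2 fold change of 2.46 ± 0.31 (limma adjusted p = 0.000525). Adm, the hypoxia-induced peptide adrenomedullin, and Plod1, a collagen lysyl hydroxylase, rose by 1.18 ± 0.23 and 0.64 ± 0.09 log2. Ndrg1, Arnt, the glucose transporter Slc2a1 and the hexokinase Hk2 were the lower genes, with log2 fold changes of −0.90 ± 0.11, −0.56 ± 0.09, −0.52 ± 0.11 and −0.49 ± 0.10. Among 42 tested NRF2 and glutathione genes 6 were lower (14.3%) and 2 higher (4.76%), with a median of −0.01. Of all tested genes 11.7% were lower and 8.89% higher. Slc7a11, the cystine transporter, Gsr, glutathione reductase, and Gsta4 had log2 fold changes of −0.82 ± 0.16, −0.64 ± 0.10 and −0.59 ± 0.12. The higher genes were Sod3, given above, and Gpx8, a peroxidase of the endoplasmic reticulum, at 0.64 ± 0.14 log2. Without E0771shCtrl 2 the lower NRF2 genes numbered 3, and without E0771shPTN 2 the higher ones numbered 5.

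Of 31 tested p53 targets 9 were lower and 1 higher, with a median log2 fold change of −0.20. Besides Fas, Mdm4, an inhibitor of p53, fell by 0.75 ± 0.14 log2, and its groups, at 5.71, 5.97 and 5.69 against 4.96, 4.83 and 5.32 log2 CPM, were apart. Epha2, an ephrin receptor, had a log2 fold change of −0.47 ± 0.08. The higher gene was Ak1, an adenylate kinase, at 0.31 ± 0.10 log2. Without E0771shCtrl 2, E0771shCtrl 3 or E0771shPTN 3, 3, 4 and 5 targets were lower, and Ak1 lost its call without any library other than E0771shPTN 2 (adjusted p up to 0.178 over the alternatives). Of 42 tested genes of the integrated stress and unfolded protein responses 3 were lower (7.14%) and 2 higher (4.76%), with a median of −0.09. Both shares were below those of all tested genes. Ern1, the sensor IRE1, Slc7a5, an amino acid transporter, and Atf4, the central factor of the integrated stress response, had log2 fold changes of −0.55 ± 0.11, −0.30 ± 0.09 and −0.30 ± 0.08, and Atf5 and Dnajb9 rose by 0.56 ± 0.11 and 0.38 ± 0.10 log2. Without E0771shCtrl 1 there were 6 lower genes of these responses. Slc7a5, Atf4 and Dnajb9 lost their calls without E0771shCtrl 2, E0771shCtrl 3 or E0771shPTN 3, among others (adjusted p up to 0.13, 0.117 and 0.0636 over the alternatives).

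Lysosomal genes were near the background, lower in 5 (10.2%) and higher in 5 (10.2%) of 49 tested, with a median of 0.10. Npc2, which carries cholesterol out of the lysosome, was at 7.38, 7.12 and 7.35 log2 CPM in E0771shCtrl and 6.37, 6.22 and 6.32 in E0771shPTN, a log2 fold change of −0.98 ± 0.09 (limma adjusted p = 0.000107). The groups were apart, and each varied by less than 0.3 log2. Asah1, acid ceramidase, Lipa, lysosomal acid lipase, Scarb2, a membrane protein, and Mitf, a factor that drives lysosomal genes, had log2 fold changes of −0.91 ± 0.08, −0.74 ± 0.11, −0.46 ± 0.08 and −0.92 ± 0.24. The higher genes included the hydrolases Gla, Tpp1, Gusb and Ctsa, at 0.47 ± 0.11, 0.39 ± 0.10, 0.35 ± 0.10 and 0.31 ± 0.08 log2. Without E0771shCtrl 3 or E0771shPTN 3, 1 member was higher, and without E0771shPTN 2, 9, while 9 were lower without E0771shCtrl 1. Mitf lost its call without E0771shCtrl 2 or E0771shCtrl 3 (adjusted p up to 0.0796 over the alternatives), and Tpp1, Gusb and Ctsa lost theirs without E0771shCtrl 3 or E0771shPTN 3, among others (up to 0.101, 0.137 and 0.117).

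Of 50 tested mitosis genes 16 were higher and 1 lower, with a median log2 fold change of 0.25. The increases were small. Ccnf, cyclin F, was at 6.86, 6.84 and 6.71 log2 CPM in E0771shCtrl and 7.32, 7.35 and 7.27 in E0771shPTN, a log2 fold change of 0.51 ± 0.08 (limma adjusted p = 0.00188). Nusap1, a spindle protein, Aurka, a mitotic kinase, and Cdc25a, a phosphatase of the cell cycle, rose by 0.46 ± 0.08, 0.43 ± 0.08 and 0.53 ± 0.11 log2. The lower gene was Plk4, the kinase that starts centriole duplication, with a log2 fold change of −0.48 ± 0.09. The mean over the 50 genes was 7.02, 6.97 and 6.91 log2 CPM in E0771shCtrl and 7.14, 7.22 and 7.18 in E0771shPTN. Without E0771shCtrl 2, E0771shCtrl 3 or E0771shPTN 3, 7, 5 and 4 members were higher.

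Of 60 tested DNA replication genes 7 were lower (11.7%, the share of all tested genes) and 10 higher (16.7%), with a median of 0.08. Rrm1, the large subunit of ribonucleotide reductase, was at 8.72, 8.71 and 8.62 log2 CPM in E0771shCtrl and 7.59, 7.73 and 7.64 in E0771shPTN, a log2 fold change of −1.03 ± 0.08 (limma adjusted p = 1.84e-05). Rrm2, its small subunit, rose by 0.46 ± 0.10 log2, so the subunits moved in opposite directions. Gins2, a subunit of the replicative helicase, and cyclin D3 (Ccnd3) had log2 fold changes of −0.76 ± 0.17 and −0.67 ± 0.10, whereas cyclins D1 and D2 (Ccnd1, Ccnd2) and E2f2, an E2F factor, rose by 0.49 ± 0.08, 0.64 ± 0.12 and 0.68 ± 0.12 log2. Without E0771shCtrl 2, E0771shCtrl 3 or E0771shPTN 3, 5, 4 and 5 members were higher and 4 lower in each case. Of 78 cytosolic ribosomal protein genes limma called 0 lower and 0 higher, with 0 lower and 3 higher at an unadjusted p under 0.05 and 0 lower and 1 higher by voom, and a median of 0.06. Without E0771shPTN 1, 2 were lower, and without E0771shPTN 2, 4 were higher.

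Of 8 tested cornified envelope and squamous genes, which keratinocytes use to build the skin barrier, 2 were lower and limma called 0 higher (0 also at an unadjusted p under 0.05 and by voom), with a median of −0.48. Sprr1a, an envelope protein, was at 2.07, 3.32 and 2.78 log2 CPM in E0771shCtrl and −0.41, 0.76 and 0.53 in E0771shPTN, a log2 fold change of −2.44 ± 0.40, and S100a10 had one of −0.59 ± 0.14. Of 25 tested histone demethylases 2 were lower and 1 higher, with a median of −0.08. Kdm7a, which removes repressive methyl marks, was at 4.83, 6.18 and 5.62 log2 CPM in E0771shCtrl and 3.16, 3.26 and 3.09 in E0771shPTN, a log2 fold change of −2.37 ± 0.29 (limma adjusted p = 0.00084). The drop in Kdm7a was larger than the wide spread of the control samples. Kdm1a, also known as LSD1, fell by 0.35 ± 0.09 log2 and Kdm3a rose by 0.50 ± 0.10 log2. Without E0771shCtrl 1 the lower demethylases numbered 5. S100a10 lost its call without E0771shCtrl 3 and Kdm1a without E0771shCtrl 2, E0771shCtrl 3 or E0771shPTN 3 (adjusted p up to 0.0511 and 0.0837 over the alternatives).

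Small RNA machinery, which processes and uses hairpins like those delivered here, was near the background, with 1 of 17 tested lower, 2 higher and a median of −0.12. Ago3, an Argonaute protein, had a log2 fold change of −0.79 ± 0.22 with overlapping groups, and Tarbp2, a partner of Dicer, and Tnrc6c, a partner of Argonaute, rose by 0.69 ± 0.12 and 0.35 ± 0.09 log2. Of 23 tested genes that make and modify heparan sulfate and related chains such as chondroitin sulfate, 5 were higher and 1 lower, with a median of 0.14. Ext1, a polymerase of heparan sulfate, was at 7.03, 6.77 and 6.84 log2 CPM in E0771shCtrl and 7.40, 7.73 and 7.52 in E0771shPTN, a log2 fold change of 0.67 ± 0.11 (limma adjusted p = 0.00171). Chpf, Hs6st1, Chst12 and Slc35b2, enzymes and a transporter that act on these chains, rose by 0.56 ± 0.08, 0.48 ± 0.09, 0.43 ± 0.11 and 0.37 ± 0.10 log2. Glce, the epimerase of heparan sulfate, fell by 0.33 ± 0.09 log2. The higher genes of this list numbered 3 without E0771shCtrl 2 and 8 without E0771shPTN 2, and the lower ones 3 without E0771shPTN 1, 2 without E0771shPTN 2 and 0 without E0771shPTN 3. Without E0771shCtrl 1 the lower genes of small RNA machinery numbered 2. Without E0771shCtrl 2 or E0771shCtrl 3, among others, Ago3, Tnrc6c, Glce, Chst12 and Slc35b2 lost their calls (adjusted p up to 0.119, 0.127, 0.0822, 0.0805 and 0.0826 over the alternatives).

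Among all called genes that changed by at least 1 log2, the 10 with the highest mean values included Col4a1, Tpm1, Sparc, Col4a2, Nap1l1, Rrm1, L1cam, Fat1 and Lamb1. Tpm1, a tropomyosin of actin filaments, was at 8.95, 8.39 and 8.47 log2 CPM in E0771shCtrl and 9.55, 9.84 and 9.61 in E0771shPTN, a log2 fold change of 1.06 ± 0.14. Fat1, a giant cadherin, and Lamb1, a laminin chain, rose by 1.03 ± 0.17 and 1.13 ± 0.16 log2. Of these 10 genes 3 fell, Nap1l1, Rrm1 and L1cam.

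E0771-LG cells carried the same constructs, and their 6 samples share none with those of E0771. Among 10223 genes tested in both lines, the log2 fold changes had a Pearson r of 0.133 across genes, which are not independent replicates. Lower in both lines were 485 genes, 40.0% of the 1211 lower in E0771 and 21.4% of the 2270 lower in E0771-LG, and higher in both were 209, 23.5% of the 890 higher in E0771 and 8.46% of the 2469 higher in E0771-LG. Of all 10223 genes, 22.2% were lower in E0771-LG, below the 40.0% of genes lower in E0771, and 24.2% were higher, near the 23.5% of genes higher in E0771. Calls in the opposite direction were made in E0771-LG for 143 of the genes lower and 191 of those higher in E0771, and no call for 583 and 490. The limma interaction term, which tests the difference between the lines, was called for 3597 of 10576 genes (34.0%). Genes named for their change in E0771 were chosen on values that enter this term, which favours a difference against that change. Genes with like changes included Ldhb, at 2.46 log2 in E0771 and 2.71 in E0771-LG, and Mgll, a monoacylglycerol lipase, at 2.50 (1.29 with a pseudocount of 1) and 2.23. Oasl2, at −1.91 and −2.39, Ereg, at −1.99 and −1.67, and Sele, at −1.65 in each, are further such genes, and the interaction was not called in any of the 5. Of 50 antiviral genes tested, 20 were lower and 1 higher in E0771-LG, and the difference was called in 7 of 51.

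Counts of several lists in E0771-LG were unlike those in E0771. In E0771-LG, 8 of 47 matrix genes were lower and 7 higher, 12 of 25 mesenchymal genes were lower and 4 higher, and 23 of 46 cholesterol and fatty acid genes were lower and 5 higher. Their medians in E0771-LG were 0.12, −0.36 and −0.33, against 0.60, 0.43 and 0.21 in E0771. The interaction was called for 20 of 49, 17 of 25 and 29 of 47 of these genes, where it was called for 34.0% of all. Of the ribosomal protein genes 0 were lower and 72 higher in E0771-LG (limma), and the interaction was called for 41 of 78. Acta2 had a log2 fold change of −2.27 in E0771-LG against 2.38 in E0771, Klf2 one of 1.11 against −1.93, and Nrp2 one of −0.99 against 1.77, and limma called the interaction in all 3 (adjusted p = 3.02e-05, 2.27e-07 and 2.27e-07).

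**Figure D5:**
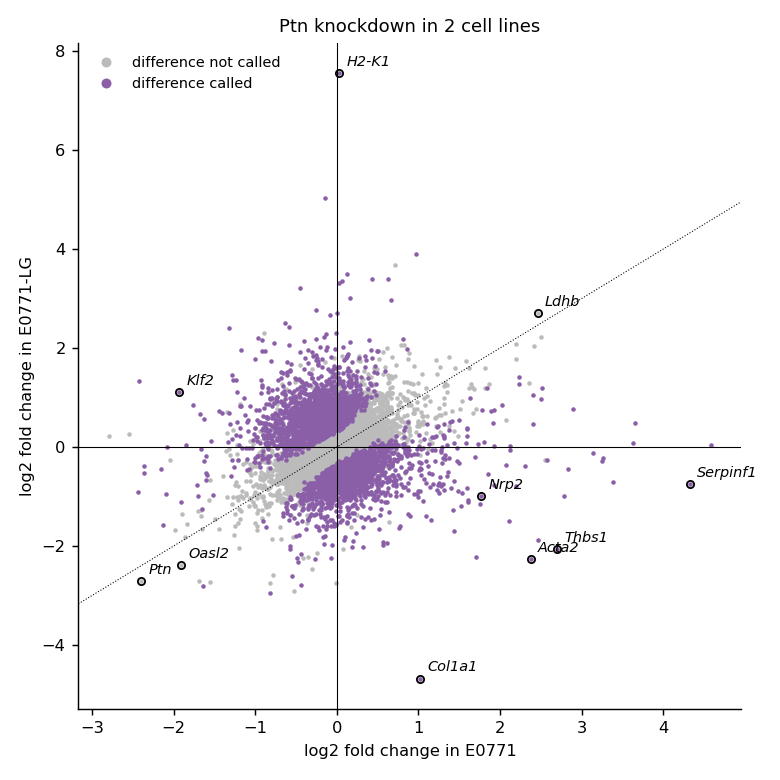
Log2 fold change with Ptn knockdown in E0771-LG (vertical) against E0771 (horizontal) for the 10223 genes tested in both lines, with genes whose change differed between the lines in the limma interaction term (34.0% of all tested for it) coloured, and named genes marked. Ptn, Ldhb and Oasl2 lie near the diagonal, and Acta2, Col1a1 and Klf2 in the quadrants of opposite direction.

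The 8 largest differences between the lines, among genes with a mean of at least 3 log2 CPM in any group, were those of H2-K1, Sema3c, Dmd, Col1a1, Ptgs2, Serpinf1, Magea9 and Thbs1. H2-K1, unchanged beyond its spread in E0771, was at −2.30, −3.71 and −5.22 log2 CPM in E0771-LGshCtrl and 3.57, 4.01 and 3.87 in E0771-LGshPTN, a difference between lines of 7.52 log2 (limma adjusted p = 9.1e-05). Col1a1, which rose by 1.02 log2 in E0771, was at 3.45, 3.24 and 3.51 log2 CPM in E0771-LGshCtrl and −0.76, −2.37 and −0.73 in E0771-LGshPTN, a difference of −5.70 log2. Sema3c, Ptgs2, Magea9 and Dmd had too few reads to be tested in E0771 alone. Sema3c, a secreted semaphorin that binds neuropilins, had 0 to 4 reads in every E0771 sample and fell by 7.48 log2 in E0771-LG. Ptgs2, the inducible cyclooxygenase, had 0, 2 and 0 reads in E0771shCtrl and 3, 18 and 4 in E0771shPTN, most of them in E0771shPTN 2, a ratio of 12.8 with a 95% interval of 3.19 to 112 for counting error only, while it fell by 2.43 log2 in E0771-LG. Magea9, a cancer-testis gene, had 1, 0 and 0 reads in E0771shCtrl and 38, 11 and 25 in E0771shPTN, a ratio of 75.8 with a 95% interval of 13.2 to 3034 for counting error only, and was at 2.84 to 3.63 log2 CPM in all E0771-LG samples. Dmd, the dystrophin gene, had 3 to 10 reads in E0771shCtrl and 14 to 25 in E0771shPTN, and it rose by 7.21 log2 in E0771-LG. The differences of the genes other than Thbs1 involve a group with few reads and moved with the pseudocount. Over the alternatives that of H2-K1 ran from 3.78 to 8.24, Sema3c from −8.45 to −3.76, Dmd from 2.75 to 7.03, Ptgs2 from −6.11 to −2.75, Magea9 from −5.55 to −1.17, Col1a1 from −6.87 to −4.00 and Serpinf1, with 16 to 19 reads in E0771shCtrl, from −5.24 to −4.10. The difference of Thbs1 ran from −5.12 to −4.49.

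Chromosomes differed little in the median change of their genes. Medians on the autosomes and the X chromosome ran from −0.13 to 0.07 log2. The lowest was that of chromosome 18, on which 59 of 260 tested genes were lower (22.7%) and 17 higher (6.54%), where 11.7% of all tested genes were lower and 8.89% higher. Lower genes also made up 17.2% of those on chromosome 13 and 15.5% on the X chromosome, and higher genes 13.7% of those on chromosome 12. In E0771-LG, chromosome 18 had a median of −0.46, and all tested genes had one of 0.05.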

How the data were processed

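The authors isolated RNA with RNeasy, sequenced it paired-end on an Illumina HiSeq instrument, mapped the reads on mm10 by means of HISAT2, assigned them to genes by featureCounts and used edgeR. The log2 values were made by the authors and used as deposited; the step that made them is not named, and they came out as log2 CPM with an offset of 0.5 reads. Of the 24 columns, 12 were used and 12 were left out, being of other experiments. Genes with at least 1 CPM in 3 of the 6 samples were fitted with limma 3.58.1 in R 4.3.3 (trend, robust), with p adjusted by Benjamini and Hochberg and called under 0.05. Tables and figures were made in Python 3.11.15, with gene positions and lengths from GENCODE M21. The samples compared, the 31 gene lists and 8 marker lists were chosen with earlier results of these data known. Ptn, Nfkb1, Rela and Jun were preset with those results known, and named by rule were the 12 largest changes each way, up to 5 members per list, 8 differences between lines and 10 abundant genes; the others, chosen after their values were seen, were Ptprz1, Sdc1, Gpc1, Cd44, Vim, Krt8, Krt5, Krt19, Elf5, Krt14, Krt18, Cdh1, Lyz2, C1qa, C1qc, Itgam, Adgre1, C1qb, Fcgr1, Lum, Lck, Cd3e, Cd3g, Nkg7, Pax5, Tie1, Cldn5, S100a8, Fabp4, Csf3r, S100a9, Ifit1, Ddx58, Lgals3bp, Nmi, Irf9, Irak1, Tnfrsf1b, Il2rg, Ier2, Myc, Zfp36l1, C1rl, Cebpg, Tgfbi, Loxl4, Lamc1, Lamb2, Agrn, Fbln2, Mmp14, Timp2, Plaur, Itga1, Pdgfra, Snai1, Tgfb1, Bmp7, Tead2, Tead4, Myof, Hbegf, Insr, Igf1r, Igf2r, Vegfc, Vegfd, Mvd, Cyp51, Sqle, Pmvk, Elovl7, Acsl1, Abcg1, Srebf1, Slc2a1, Hk2, Gsta4, Epha2, Ak1, Scarb2, Tpp1, Gusb, Ctsa, Aurka, Rrm2, Ccnd1, Ccnd2, Glce and Mgll. Alternatives were pseudocounts, filters, scalings, thresholds, weights, variance settings, a fit over both lines, a replicate block and leaving out each library. No test of whole lists was run.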

Additional observations from a re-analysis of the deposited data

Results flagged for a closer look

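The change with the knockdown differed between the cell lines for these genes named above, by the limma interaction term over the 12 cell samples (adjusted p under 0.05). Each value is the log2 fold change in E0771-LG less that in E0771, and the cause of the differences was not tested. Many of the genes were named for their change in E0771, whose values enter the difference, and this choice favours a difference against that change. Sizes for genes with almost no reads in a group depend on the pseudocount. Groups of 3 samples are too small for a test of single samples.

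Among genes that rose in E0771, the change in E0771-LG was lower for Agt (−7.53), Col1a1 (−5.70), Serpinf1 (−5.09), Thbs1 (−4.78), Acta2 (−4.64), Cp (−4.54), Myl9 (−4.34), Dll4 (−3.77), Prxl2a (−3.55), Sod3 (−3.55), Tuba8 (−3.48), Col3a1 (−3.29), Gask1b (−3.27), Mdk (−3.18), C1qtnf1 (−3.17), Nrp2 (−2.76), Pdgfrb (−2.72), Tgfb2 (−2.47), Ccn2 (−2.41), Amotl2 (−2.38), Lgals3bp (−2.22), Idi1 (−2.17), Tgfbi (−2.17), Hand1 (−2.13), Pdgfra (−2.10), Mmp2 (−2.04), Vegfc (−2.01), Thbs2 (−1.95), Adm (−1.93), Lamb1 (−1.66), Col4a2 (−1.59), Masp1 (−1.52), Foxc1 (−1.51), Col4a1 (−1.49), Il1r1 (−1.38), Krt80 (−1.34), Loxl2 (−1.31), Ccnd2 (−1.28), Smad7 (−1.08), Ajuba (−1.08), Tpm1 (−1.08), Fat1 (−1.07), Tnfrsf1b (−0.99), Cyp51 (−0.99), Ext1 (−0.99), Acat2 (−0.99), Igf2r (−0.99), Ccnd1 (−0.96), Lyz2 (−0.96), Timp2 (−0.92), Igf1r (−0.85), Stat6 (−0.83), Snai1 (−0.82), Zfp36l1 (−0.77), Sqle (−0.77), Chpf (−0.75), Tnrc6c (−0.71), Sdc4 (−0.66), Htra1 (−0.65), Dusp1 (−0.65), Itga7 (−0.64), Kdm3a (−0.60), Cldn12 (−0.59), Il2rg (−0.54), Aurka (−0.50), Cdc25a (−0.47), Rrm2 (−0.45) and Ccnf (−0.36).

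Among genes that rose in E0771, the change in E0771-LG was higher for Bmp7 (2.93).

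Among genes that fell in E0771, the change in E0771-LG was higher for Klf2 (3.04), Gsta4 (3.02), Btc (2.18), Atf3 (2.17), Irf8 (2.08), Arhgef3 (1.99), Kdm7a (1.85), Gadd45a (1.78), Chml (1.72), Cxcl1 (1.67), Areg (1.62), Sprr1a (1.54), L1cam (1.43), Fas (1.35), Pmvk (1.34), Gins2 (1.33), Ndrg1 (1.29), Mitf (1.27), Psme1 (1.25), Ier2 (1.24), Npc2 (1.19), Mblac2 (1.14), S100a10 (1.07), Tead2 (1.06), Atf4 (1.06), Elovl7 (1.03), Klf4 (1.02), Nfkbia (0.98), Plaur (0.98), Ago3 (0.93), Lamb2 (0.92), Asah1 (0.84), Tgfb1 (0.77), Kdm1a (0.72), Relb (0.72), Loxl4 (0.71), Jun (0.56), Nap1l1 (0.56), Cebpg (0.54), Gsr (0.53) and Irak1 (0.49).

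Among genes that fell in E0771, the change in E0771-LG was lower for Nfkb1 (−0.40), Slc7a5 (−0.47), Ern1 (−0.64), Pax5 (−0.70) and Gbp2 (−1.16).

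Among genes not called or not tested in E0771, the difference was called for Ptprz1 (2.39), Krt8 (1.62), Krt18 (3.90), H2-K1 (7.52), Sema3c (−7.51), Dmd (5.77), Ptgs2 (−5.42) and Magea9 (−4.99).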

How the results depend on the processing

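The 1216 lower and 924 higher genes became 539 and 432 at an adjusted p under 0.01, and 133 and 206 with a change of at least 1 log2. Leaving out each library in turn gave 648 to 1225 lower and 492 to 941 higher genes; fewer samples were fitted, and any further cause was not tested. The other alternatives gave 1028 to 1414 lower and 788 to 1079 higher genes. A replicate block gave the most lower genes (1414, with 1036 higher), although whether equal replicate numbers mark paired samples is not stated. The 3597 genes whose change differed between the lines became 1872 at an adjusted p under 0.01 and 1073 with a difference of at least 1 log2, and 2640 to 3903 without 1 library.

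Ptn kept its decrease in every alternative, with log2 fold changes of −2.72 to −1.67 and adjusted p of 0.000229 to 0.00828; it had no value under the filter of 5 CPM, which it did not pass. Of the 209 other tested genes the text names, 146 kept direction and call in every alternative. Some genes for which left-out libraries are named, such as Mdk, Fgf2, Abcg1, Atoh8 and Gadd45a, also lost the call in alternatives that kept all samples. Over 3533 pairs of gene and alternative, 3249 kept both, 277 lost the call and 7 changed direction. The 7 were in 4 genes that were not called, all without 1 library: Krt8 (0.01 without E0771shCtrl 2 and 0.00 without E0771shPTN 2; −0.11 to 0.01 over all left out), S100a8 (0.12 without E0771shPTN 2; −1.11 to 0.12), Fabp4 (0.66 without E0771shPTN 2; −0.82 to 0.66) and H2-K1 (−0.07 without E0771shCtrl 1, −0.10 without E0771shPTN 1 and −0.00 without E0771shPTN 3; −0.10 to 0.21). The cause was not tested.

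Depth of 15.63 to 20.42 M reads limits genes with few reads, for which the error of counting is large. With 3 samples per group, 1 construct and separately selected populations, the comparison describes these 2 populations of cells, not Ptn alone, and bulk RNA shows neither protein nor which cells changed.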
